A study of Mus musculus with 8 samples.

Results

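The 10 genes described here mark macrophages or belong to the colony-stimulating factor system that sustains them. They were taken by symbol: Itgam (CD11b), Emr1 (F4/80, now named Adgre1), Csf1r, Csf1, Csf2, Csf2rb, Cx3cr1, Cd14, Cybb and Ptprc (CD45). All 10 had a probe on a panel of 750 immune-related genes. The tumors grew in male wild-type C57BL/6 mice, 7 to 8 weeks old, that had received 500000 MC38 cells, a murine colon cancer cell line, in the peritoneal cavity. From day 7 the treated mice were given the STING agonist RR-CDA, a cyclic dinucleotide, in 2 intraperitoneal injections of 15 µg, and control mice were given PBS in an equal volume. By the study's account tumors were collected 10 days after the first injection, 4 per group, and RNA came from whole tumor tissue, so that cancer cells, stroma and leukocytes were measured together. The labels give the tissue as colon. The study states that the tumors of each group were pooled from 2 experiments, and which tumor belongs to which is not given, so that no comparison within an experiment could be made. Nothing says that each tumor came from a separate mouse, so the p-values below measure only the spread between these samples.

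Macrophages depend on signals through the receptor encoded by Csf1r, which binds the ligands CSF-1 and IL-34. GM-CSF, encoded by Csf2, acts on myeloid cells through a receptor whose shared beta chain is encoded by Csf2rb. Monocytes enter inflamed tissue and tumors with the integrin chain CD11b on their surface and gain F4/80 as they mature into macrophages, while CD45 is found on nearly all leukocytes.

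RNA was measured on a NanoString nCounter panel, in which color-coded probes hybridize to transcripts and are counted without amplification. The authors deposited raw counts, whose sum over the immune-related genes was 285795, 301429, 403150 and 241724 in PBS 1 to 4. It was 311523, 241506, 304728 and 414698 in STING agonist 1 to 4. Each tumor was scaled to the geometric mean of its 20 housekeeping genes, and the scaled values are called normalized counts. Background was set for each tumor at 2 SD over the average of its 8 negative probes, which came to 8.62 counts on average. The mean count of 9 of the 10 genes was above it, from 40.1 for Csf2rb to 604 for Csf1. Csf2 averaged 4.88 counts and exceeded the background of its own tumor in 1 of 8 tumors. Probes differ in efficiency. Sums of counts over genes, and the naming of the gene with the most counts in a list, therefore describe counts and not levels of transcripts.

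Some tumors stood apart before groups were compared. PBS 2 and PBS 4 were nearly identical. Over 358 genes with moderate counts, chi-square divided by its degrees of freedom was 0.404 for this pair and 5.89 to 12.6 for the 11 other within-group pairs. Over the 61 genes with the highest counts it was 6.39, more than counting error alone, and 45.1 to 364 in the others. They were averaged and counted as 1 sample, which left n = 3 controls and n = 4 treated tumors. The pair was also low in most of the 10 genes. In 9 of the 10 genes, all but Cd14, both tumors lay below the other 6, a position also held by 36.7% of the panel. Their mean was 0.178 times that of PBS 1 and 3 for Csf1r, 0.304 times for Emr1 and 0.348 times for Itgam. STING agonist 4 held hepatocyte transcripts. Ambp, a plasma protein gene of the liver, had 864 counts there and 2 to 10 elsewhere, and Hamp, which encodes the liver hormone hepcidin, had 283 against 3 to 11. Values without PBS 2 and 4 or without STING agonist 4 are given beside some of the results below. The part of the pooled experiments in these differences was not tested.

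In the pan-leukocyte gene Ptprc and in the macrophage genes Emr1, Cybb and Csf1r, every STING agonist-treated tumor had a higher value than every control, and in the other 6 genes the groups overlapped. None of the 10 genes passed the edgeR test across the panel. DESeq2 called 52 genes of the 750, among them Ptprc (adjusted p = 0.0321) and Emr1 (adjusted p = 0.0437). Coordinates beside a transcript identifier are those of the gene. Ptprc (NM_011210.3, chr1:138062859-138175756; coordinates here and below are of GRCm38.p6) encodes CD45, the tyrosine phosphatase common to leukocytes. Its normalized counts were 106, 41.8, 109 and 40.3 in PBS 1 to 4 and 251, 163, 137 and 262 in STING agonist 1 to 4. The groups were apart, with PBS 2 and 4 lowest and STING agonist 3 nearest to the controls. The means were 85.2±38.2 (SD, n = 3) and 203±62.6 (SD, n = 4). By edgeR's quasi-likelihood test with Benjamini-Hochberg adjustment over the 750 genes, the log2 fold change was 1.24±0.377 (SE), with adjusted p = 0.181. In bulk tissue, more cells of a type and more RNA per cell cannot be told apart, nor can fewer cells and less RNA, and this holds for every gene below.

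Emr1 (NM_010130.1, chr17:57358581-57483529) encodes F4/80, the adhesion receptor by which mouse macrophages are usually recognized. It measured 151, 55.0, 231 and 61.2 normalized counts in PBS 1 to 4 and 483, 303, 251 and 411 in STING agonist 1 to 4. The groups did not overlap, although PBS 3 and STING agonist 3 lay close together. Emr1 averaged 147±87.2 (SD, n = 3) in controls and 362±105 (SD, n = 4) in treated tumors, and its log2 fold change in edgeR was 1.29±0.429 (SE; adjusted p = 0.194).

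Cybb (NM_007807.2, chrX:9435252-9487766) encodes gp91phox, the catalytic subunit of the NADPH oxidase that makes superoxide in phagocytes. Its values were 226, 46.9, 198 and 44.2 in the controls and 419, 331, 279 and 490.5 in the treated tumors. All treated tumors were above all controls, and PBS 2 and 4 were far below the other controls. The means of 157±97.2 (SD, n = 3) and 380.1±93.7 (SD, n = 4) corresponded to 1.27±0.467 (SE) on the log2 scale in edgeR, with adjusted p = 0.218.

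Csf1r (NM_001037859.2, chr18:61105572-61131139) encodes the tyrosine kinase receptor on which most tissue macrophages depend. It was at 204, 36.7, 200.2 and 35.1 normalized counts in PBS 1 to 4 and at 281, 306, 223 and 340.2 in STING agonist 1 to 4. The groups did not overlap, but PBS 1 and 3 came close to STING agonist 3 while PBS 2 and 4 lay far below. The log2 fold change was 0.96±0.483 (SE; edgeR, adjusted p = 0.327), and without PBS 2 and 4 it was 0.51 (edgeR, adjusted p = 0.311). Without that pair the log2 fold changes of Ptprc, Emr1 and Cybb were 0.92, 0.92 and 0.84. Without STING agonist 4, the tumor with hepatocyte transcripts, those of Ptprc, Emr1, Cybb and Csf1r were 1.10, 1.23, 1.12 and 0.87.

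**Figure D1:**
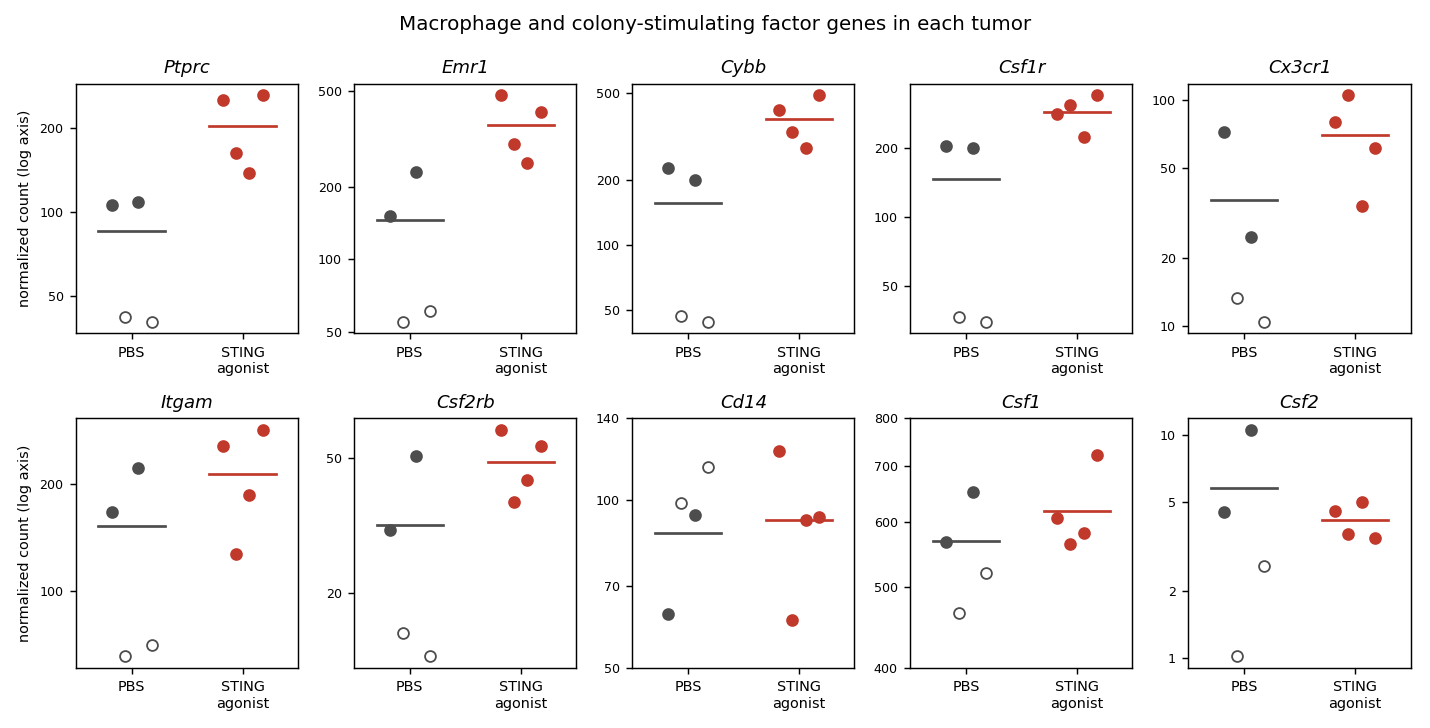
Normalized counts (log axes) of the 10 genes in each PBS-treated and STING agonist-treated tumor, with open circles for PBS 2 and 4, which enter the group mean (line) as 1 sample. In Ptprc, Emr1, Cybb and Csf1r the 4 treated tumors lie above all controls, and in the other 6 genes the groups overlap.

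Cx3cr1 (NM_009987.3, chr9:120048683-120068296) encodes the fractalkine receptor of monocytes and of some tissue macrophages. Its normalized counts were 72.4, 13.3, 24.7 and 10.4 in the controls and 80.0, 105, 34.0 and 61.3 in the treated tumors. PBS 1 lay within the treated range, and 2 of 4 treated tumors were above every control. PBS 2 and 4 were near the floor, with raw counts of 13 and 8 beside backgrounds of 11.3 and 8.27. The log2 fold change was 0.94±0.603 (SE; edgeR, adjusted p = 0.431), and 0.53 to 1.92 over all alternatives.

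Itgam (NM_008401.2, chr7:128062640-128118491) encodes CD11b, the alpha chain of an integrin that myeloid cells use to adhere and to take up complement-coated particles. Its values were 167, 65.2, 223 and 70.3 in PBS 1 to 4 and 256, 127, 186 and 285 in STING agonist 1 to 4. STING agonist 2 was lower than PBS 1 and 3, and 2 of 4 treated tumors lay above every control. From 152±78.7 (SD, n = 3) and 213±71.1 (SD, n = 4), the log2 fold change was 0.48±0.407 (SE; edgeR, adjusted p = 0.565), and it was 0.13 without PBS 2 and 4.

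Cd14 (NM_009841.3, chr18:36725064-36726815) encodes the lipopolysaccharide co-receptor of monocytes and macrophages, and it did not share the low values of PBS 2 and 4. It measured 62.5, 98.9, 93.8 and 115 normalized counts in the controls and 122, 61.0, 92.0 and 93.3 in the treated tumors. Both the highest and the lowest value were in treated tumors, and the groups overlapped. Its log2 fold change of 0.083±0.288 (SE; edgeR, adjusted p = 0.915) turned to -0.20 with TMM scaling, to -0.11 without PBS 1 and to -0.081 without STING agonist 1.

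Among the ligands, Csf1 (NM_001113530.1, chr3:107741048-107760469), which encodes CSF-1, was at 568, 466, 652 and 521 normalized counts in PBS 1 to 4 and at 606, 563, 581 and 724 in STING agonist 1 to 4. The groups overlapped, with PBS 2 lowest and STING agonist 4 highest. The log2 fold change was 0.12±0.161 (SE; edgeR, adjusted p = 0.765) and turned to -0.13 with TMM scaling. Csf2 (NM_009969.4, chr11:54247270-54249899), the GM-CSF gene, had raw counts of 5, 1, 15 and 2 in the controls and 4, 3, 5 and 4 in the treated tumors. The count of PBS 3 had an exact Poisson 95% interval of 8.40 to 24.7, and that of STING agonist 4 one of 1.09 to 10.2, which cover counting error only. A difference in Csf2 was not detectable at this depth. Its log2 fold change, -0.55 (edgeR, adjusted p = 0.616), turned to 0.24 without PBS 3. Csf2rb (NM_007780.4, chr15:78325800-78351001), the beta chain of the GM-CSF receptor, was at 30.8, 15.3, 50.8 and 13.0 normalized counts in the controls and 60.6, 37.1, 43.0 and 54.4 in the treated tumors. The groups overlapped, with 2 of 4 treated tumors above every control and a log2 fold change of 0.60±0.429 (SE; edgeR, adjusted p = 0.474), which was 0.25 without PBS 2 and 4. Mice have a close paralog, Csf2rb2, and whether the probe separates the pair was not tested.

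Over the panel, 0 of 750 genes (0%) and 0 of the 10 genes had an adjusted p under 0.05 by edgeR's quasi-likelihood test with Benjamini-Hochberg adjustment. At an unadjusted p under 0.05, 132 genes (17.6%) had higher values and 10 (1.33%) lower values, and 3 of the 10 genes, Ptprc, Emr1 and Cybb, were among the former. The Wald test of DESeq2 called 52 genes after adjustment, with Ptprc and Emr1 but not Cybb (DESeq2, adjusted p = 0.0747), while limma and the methods' t-test called 0. The adjustment was DESeq2's own, which gave no value for Csf2. Over all alternatives and tools, adjusted p ran from 0.0321 to 0.415 for Ptprc and from 0.0437 to 0.415 for Emr1. Single tumors moved the panel counts. The 132 higher genes became 79 without STING agonist 1 and 79 without STING agonist 4, and the 10 lower genes became 6 without PBS 3, 6 without STING agonist 1 and 18 without STING agonist 3. Without PBS 2 and 4, 90 were higher and 17 lower, with 4 of the 10 genes, now also Csf1r, under an unadjusted p of 0.05. After adjustment 1 gene passed in edgeR without PBS 3 and 7 without STING agonist 3, with none of the 10 among them.

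The groups did not overlap in 4 of the 10 genes, all with higher values after treatment, against 16.8% of the panel. In the other direction the groups were apart in 0 of the 10 genes and in 1.47% of the panel. A two-sided exact permutation test over the 35 arrangements of the samples gave p = 0.0286 in each of those 4 genes, the smallest it can give, and at least 0.143 in the other 6. The median log2 fold change was 0.77 over the 10 genes and 0.22 over the panel. These medians were 0.38 and 0.16 without PBS 2 and 4. TMM scaling moved them to 0.55 and -0.025, with 84 genes higher and 40 lower in the unadjusted test. On that scale the log2 fold changes of Ptprc, Emr1, Cybb and Csf1r were 1.01, 1.09, 1.05 and 0.77, and 3 of the 10 genes, without Csf1r, had groups apart, against 9.33% of the panel. Scaled to the positive control probes, 2 of the 10 genes, Cybb and Ptprc, had groups apart, against 9.6% of the panel.

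**Figure D2:**
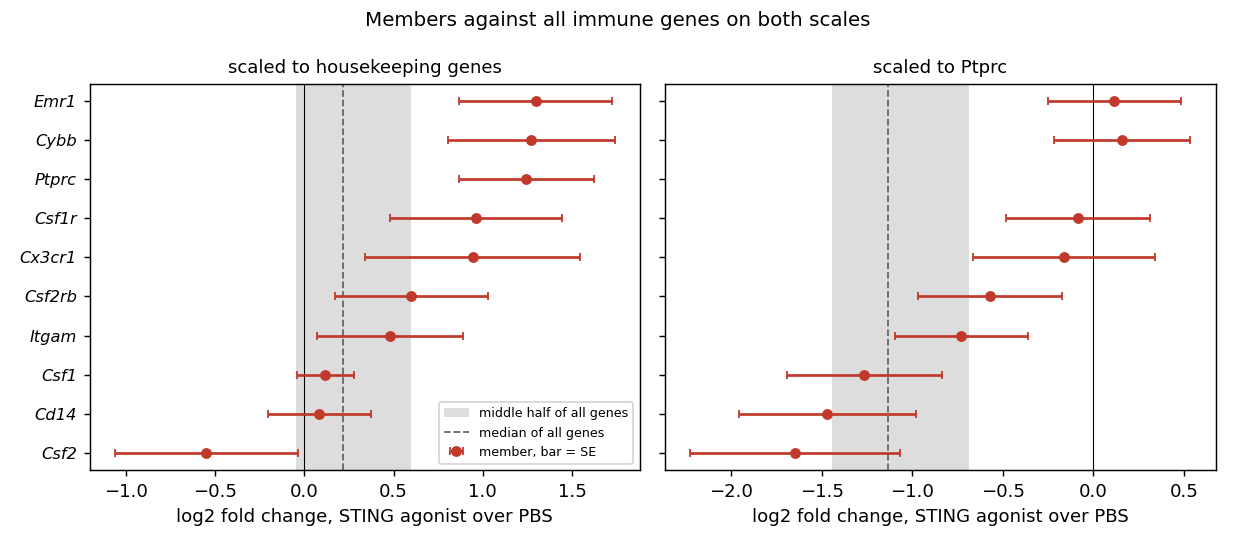
Log2 fold change of each gene between the groups with its SE, scaled to housekeeping genes (left) or to Ptprc (right), where the dashed line is the median of all genes tested (0.22 and -1.13) and the grey band runs between their quartiles. Emr1, Cybb, Csf1r, Cx3cr1 and, close to its edge, Csf2rb lie to the right of the band on both scales, and Csf1 and Cd14 lie inside the left band, near 0 and with signs that turn under TMM scaling.

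Counts were next set against Ptprc, which gives each gene per unit of pan-leukocyte transcript. Emr1 per Ptprc was 1.43, 1.32, 2.13 and 1.52 in PBS 1 to 4 and 1.92, 1.86, 1.83 and 1.57 in STING agonist 1 to 4. The treated tumors lay inside the range of the controls. Cybb per Ptprc was 2.14, 1.12, 1.82 and 1.10 in the controls and 1.67, 2.04, 2.04 and 1.87 in the treated tumors, with PBS 2 and 4 low. Csf1r per Ptprc was 1.92, 0.878, 1.84 and 0.871 in the controls and 1.12, 1.88, 1.63 and 1.30 in the treated tumors, with the same pair of controls lowest. In edgeR the log2 fold changes per Ptprc were 0.12±0.366 (SE) for Emr1, 0.16±0.377 for Cybb, -0.082±0.399 for Csf1r and -0.16±0.501 for Cx3cr1 (adjusted p from 0.726 to 0.867). Each was smaller than its SE. With a leukocyte denominator of Ptprc, Cd53 and Cd48 in place of Ptprc alone, they were 0.52 for Emr1, 0.52 for Cybb, 0.25 for Csf1r and 0.18 for Cx3cr1. Emr1 was at 0.35 without PBS 3 and at 0.012 without PBS 2 and 4, and Cybb at 0.36 without PBS 1. Csf1r was at -0.35 and Cx3cr1 at -0.33 without PBS 2 and 4. The sign turned for Cybb without PBS 2 and 4 (-0.057), for Csf1r without PBS 1 (0.092), PBS 3 (0.056) or STING agonist 1 (0.033), and for Cx3cr1 without PBS 1 (0.53) or STING agonist 4 (0.0026).

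Itgam per Ptprc had lower values in every treated tumor. The ratio was 1.57, 1.56, 2.05 and 1.74 in PBS 1 to 4 and 1.02, 0.779, 1.36 and 1.09 in STING agonist 1 to 4. The groups did not overlap, and PBS 2 and 4 lay close to the other controls here. The log2 fold change per Ptprc was -0.73±0.366 (SE; edgeR, adjusted p = 0.106), and without PBS 2 and 4 it was -0.77. With the leukocyte denominator it was -0.31 (edgeR, adjusted p = 0.398).

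Csf1 per Ptprc was 5.36, 11.1, 6.01 and 12.9 in the controls and 2.41, 3.46, 4.24 and 2.77 in the treated tumors. All treated tumors lay below all controls, and PBS 2 and 4, low in Ptprc, were highest. Csf1 fell by 1.26 per Ptprc on the log2 scale (SE 0.427; edgeR, adjusted p = 0.0423). Its value was -0.82 without PBS 2 and 4 (edgeR, adjusted p = 0.123) and -0.77 with the leukocyte denominator (edgeR, adjusted p = 0.0717). Cd14 per Ptprc was 0.590, 2.37, 0.864 and 2.84 in PBS 1 to 4 and 0.486, 0.375, 0.672 and 0.356 in STING agonist 1 to 4. STING agonist 3 overlapped PBS 1, and the other 3 treated tumors lay below every control. Cd14 fell by 1.47 per Ptprc (SE 0.487; edgeR, adjusted p = 0.0423). It was at -0.63 without PBS 2 and 4 (edgeR, adjusted p = 0.206) and at -0.89 with the leukocyte denominator (edgeR, adjusted p = 0.0925). Csf2 had -1.64 (SE 0.580; edgeR, adjusted p = 0.0446), but the ratio of a count at background to Ptprc moves with Ptprc, and no difference in Csf2 is read from it. Csf2rb had -0.57 (SE 0.397; edgeR, adjusted p = 0.231), and -0.72 to -0.17 over all alternatives.

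These calls are read against the panel, 93.2% of which had a log2 fold change per Ptprc below 0. Of the other 749 genes, 255 (34.0%) were lower per Ptprc with an adjusted p under 0.05 in edgeR and 3 were higher, and the median log2 fold change was -1.13. The 3 of 9 genes that passed, Csf1, Cd14 and, at background, Csf2, are a share close to that of the panel. In 3 of the 9 genes, Itgam, Csf1 and Csf2, all treated tumors were below the controls when PBS 2 and 4 were averaged, against 42.5% of the panel, but PBS 2 alone overlapped the treated tumors in Csf2. The calls rested on the denominator and on single tumors. With the leukocyte denominator 0 of the 9 genes passed in edgeR and 10 genes of the panel were lower. Without STING agonist 1, STING agonist 2, STING agonist 4 or the pair PBS 2 and 4, 0 of the 9 genes passed, and 0, 0, 5 and 3 genes of the panel were lower. Without PBS 1 the panel count was 395. Csf2 also lost its call without PBS 3 (edgeR, adjusted p = 0.254) and without PBS 4 (edgeR, adjusted p = 0.0607). Over all alternatives adjusted p ran from 0.0123 to 0.125 for Csf1, from 0.0216 to 0.254 for Csf2 and from 0.0123 to 0.206 for Cd14.

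**Figure D3:**
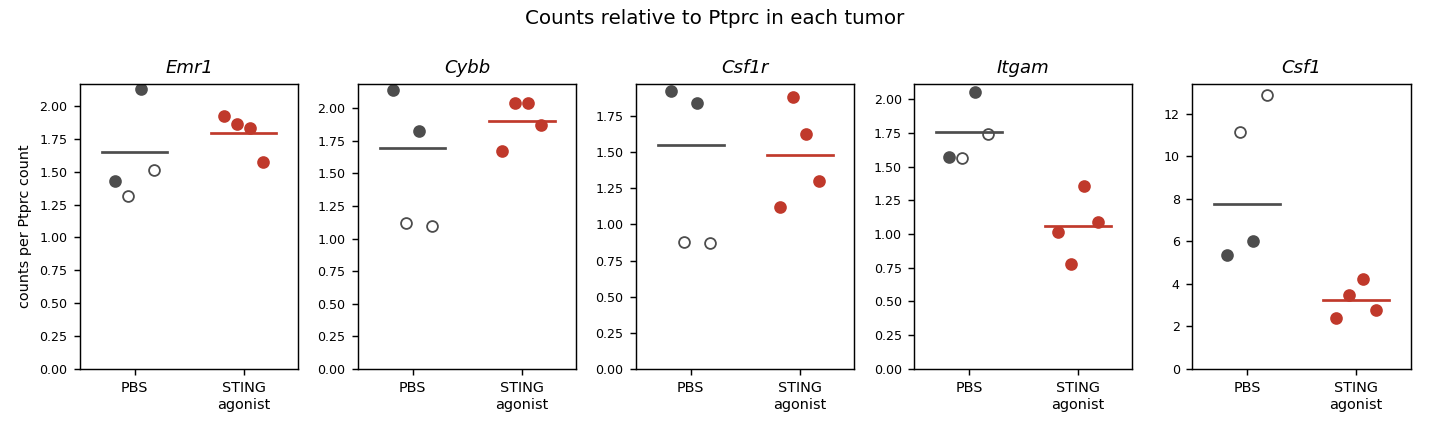
Counts of 5 genes divided by the Ptprc count of the same tumor (linear axes from 0), with open circles for PBS 2 and 4 and a line at each group mean. The groups overlap in Emr1, Cybb and Csf1r, and the 4 treated tumors lie below all controls in Itgam and Csf1.

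Whether these genes differed from each other by group was tested on 6 ratios of a pair of genes within a tumor. The ratio of Itgam to Emr1 was 1.10, 1.19, 0.963 and 1.15 in PBS 1 to 4 and 0.530, 0.419, 0.741 and 0.693 in STING agonist 1 to 4. The groups were apart, and all controls lay close to each other, PBS 2 and 4 included. The mean ratio was 1.08±0.110 (SD, n = 3) against 0.596±0.149 (SD, n = 4). The log2 difference was -0.89 (SE 0.206; two-sided exact permutation test, p = 0.0286, and 0.0571 after adjustment over the 6 pairs). It was -0.82 without PBS 2 and 4, and between -1.003 and -0.73 over all alternatives.

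Cybb to Itgam was 1.36, 0.719, 0.889 and 0.630 in the controls and 1.64, 2.61, 1.5 and 1.72 in the treated tumors. These groups did not overlap either, with PBS 1 nearest to STING agonist 3. The log2 difference was 0.96 (SE 0.338; exact permutation test, p = 0.0286, adjusted 0.0571), and 0.73 without PBS 2 and 4. Csf1r to Csf1, a receptor gene over that of its ligand, was 0.359, 0.0788, 0.307 and 0.0675 in the controls and 0.464, 0.544, 0.384 and 0.470 in the treated tumors. PBS 2 and 4 were far below the rest. The log2 difference of 1.18 (SE 0.717; exact permutation test, p = 0.0286, adjusted 0.0571) was 0.47 without them. In Csf1r to Emr1, Cd14 to Itgam and Cx3cr1 to Csf1r the groups overlapped, with log2 differences of -0.16, -0.51 and -0.10 (exact permutation tests, adjusted p from 0.771 to 0.857). The sign turned for Csf1r to Emr1 without PBS 1 (0.12). It also turned for Cd14 to Itgam without PBS 2 and 4 (0.14), and for Cx3cr1 to Csf1r without that pair (0.11), PBS 1 (0.17), STING agonist 3 (0.087) or STING agonist 4 (0.012). The smallest p of such a test is 0.0286, and none of the 6 pairs passed after adjustment.

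**Figure D4:**
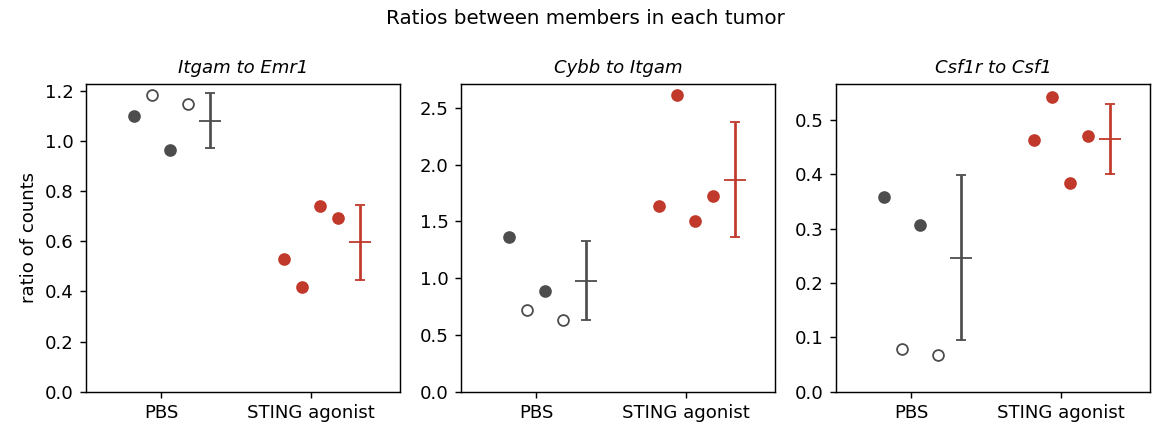
Ratios of counts within each tumor for the 3 pairs of genes whose groups did not overlap, with the mean and SD of each group and open circles for PBS 2 and 4. Each control exceeds each treated tumor in Itgam to Emr1, while Cybb to Itgam and Csf1r to Csf1 are higher.

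Promoters were searched for letters shared by genes that were high in the same tumors, such as Ptprc and Cybb. RefSeq promoter windows, from 250 bases before to 50 after each start site, were searched for 6 of the 10 genes: Itgam, Csf1, Csf2, Cx3cr1, Cybb and Ptprc. No window of Emr1, Csf1r, Csf2rb or Cd14 was searched, so nothing is said about their promoters. The start sites used for Cybb and Ptprc lie inside the gene spans given above. The letters GAGGAA, the core that the myeloid factor PU.1 is known to bind, were sought on both strands. They were found in the windows of Itgam, Cybb and Ptprc, for Ptprc at 1 of 2 start sites, and not in those of Csf1, Csf2 and Cx3cr1. Of all 32851 windows, 28.3% held them. GAGGAA was picked after the promoter sequences were seen, so the matches cannot be read as a test against that share. A second motif, TTGCGC, part of the C/EBP site, was in no window of the 6 genes and in 6.49% of all windows. Each match is shown within 30 bases, read in the direction of the gene, with capitals for the core, which reads TTCCTC where it lies on the opposite strand.
Itgam at 84 bases before the start, chr7:128062544-128062573, + strand: tgttttctcccgGAGGAAggctacagaggg
Itgam at 15 bases before the start, chr7:128062613-128062642, + strand: tctcatagctttTTCCTCatacttctctgt
Itgam at 33 bases after the start, chr7:128062660-128062689, + strand: ggccttggtggcTTCCTCaaagtgtctgtg
Cybb at 10 bases after the start, chrX:9469298-9469327, - strand: tgctgttttcatTTCCTCatcagaagaaga
Ptprc at 158 bases before the start, chr1:138175446-138175475, - strand: tgttttcctttaGAGGAAaattgagacgaa
A match describes these letters only, and whether any factor binds there was not tested.

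Direct partners of these genes were read next, 11 of 14 listed ones being on the panel. None passed after adjustment in edgeR, 3 were higher at an unadjusted p under 0.05 (17.6% of the panel), and their median log2 fold change was 0.48, beside 0.22 over the panel. Itgb2, the beta chain that pairs with CD11b, was at 168, 119, 212 and 134 normalized counts in the controls and 303, 227, 223 and 316 in the treated tumors. The groups did not overlap, and the log2 fold change was 0.66 (SE 0.229; edgeR, adjusted p = 0.203). Cx3cl1, the ligand of the fractalkine receptor, had 1.11 (SE 0.341), also without overlap, and was called by DESeq2 (adjusted p = 0.0321), unlike the other partners. Ncf4, a cytosolic subunit of the NADPH oxidase, had 0.66 (SE 0.258) with overlapping groups. Over all alternatives the log2 fold change was 0.41 to 0.86 for Itgb2 and 0.41 to 0.88 for Ncf4. For the partners of CD14 in lipopolysaccharide sensing the log2 fold changes were 0.16 for Tlr4, 0.25 for Tlr2, 0.063 for Ly96 and -0.51 for Lbp, all with overlapping groups, and those of Tlr4 and Ly96 turned below 0 with TMM scaling, as did that of Tlr2 without PBS 2 and 4. That of Lbp was -0.82 to -0.24 over all alternatives. Among substrates and binding partners of CD45, Lck, Lyn, Fyn and Cd22 had log2 fold changes of 0.82, 0.70, 0.31 and 0.48, and the groups were apart in Lck. Over all alternatives these were 0.56 to 1.03 for Lck, 0.35 to 1.08 for Lyn, 0.041 to 0.39 for Fyn and 0.10 to 0.77 for Cd22, with Lyn lowest without PBS 2 and 4. Cd22 averaged 14.1 counts, and its 5 counts in PBS 1 were below the background of that tumor, 10.4.

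Of 14 other growth factor and receptor genes of the family, 10 were on the panel and 3 averaged at least 20 counts. None had an unadjusted p under 0.05, the groups were apart in 1, Il3ra (16.8% of the panel), and the median log2 fold change was -0.11, beside 0.22 over the panel. Il34, the other ligand of the CSF-1 receptor, was at 209, 264, 183 and 272 normalized counts in the controls and 216, 183, 155 and 224 in the treated tumors. The groups overlapped, and the log2 fold change was -0.17 (SE 0.203; edgeR, adjusted p = 0.716). PBS 2 and 4 were highest, and without them it was -0.0096, while with TMM scaling it was -0.47. Flt3l, a growth factor of dendritic cells, had -0.052, the G-CSF receptor gene Csf3r 0.82 and the stem cell factor receptor gene Kit 0.14, the last turning below 0 with TMM scaling. Without PBS 2 and 4, Csf3r was at 0.46 and Kit at 0.30, and Flt3l was at 0.0056 scaled to the positive control probes. Csf3r averaged 20.75 counts and exceeded the background of its own tumor in 6 of 8 tumors, and Kit averaged 16.1 counts. Of 10 transcription factors and kinases that act below these receptors or shape myeloid cells, 8 were on the panel and 2, Irf8 and Runx1, were higher at an unadjusted p under 0.05 (17.6% of the panel), with 0 past the adjusted threshold in edgeR. Runx1 was at 161 to 195 normalized counts in the controls and 223 to 377 in the treated tumors, without overlap, a log2 fold change of 0.73 (SE 0.207; edgeR, adjusted p = 0.175). DESeq2 called it (adjusted p = 0.0341). Cebpb, Jak2 and Lyn had 0.0067, 0.36 and 0.70, and the sign of Cebpb turned with TMM scaling, where Jak2 was at 0.11.

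For the 9 genes with at least 20 counts on average, the 3 nearest profiles over the 7 samples were sought among 517 genes, by the root mean square difference of centered log2 values, given here as a distance. The neighbors of Csf1r included Cybb (0.201) and Ly86 (0.213), and those of Cybb included Ly86 (0.139). Emr1 was closest to Cd180 (0.176), Ltb (0.193) and Fcgr1 (0.202), and Ptprc to Tlr9 (0.103), Ltb (0.140) and the protease gene Ctss (0.157). Itgam had other neighbors, the complement receptor gene C5ar1 (0.183), Csf2rb (0.203) and Syk (0.207). Csf2rb lay by Msr1 (0.137), Lyz2 (0.141) and Entpd1 (0.1495), and Cx3cr1 by Cxcl16 (0.453), Tlr9 (0.540) and Cxcl11 (0.560). Csf1 lay by Ets1 (0.0545), Lrp1 (0.0747) and Gtf3c1 (0.0905), and Cd14 by Twist1 (0.0962), Klra4 (0.0973) and Il6ra (0.141). Without the averaged sample of PBS 2 and 4, 5 of all 27 neighbors, not all of which are given here, were still among the nearest 3 of their gene.

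The genes of lowest p per Ptprc included other macrophage genes. Cd163, the hemoglobin scavenger receptor, was at 0.402, 0.463, 0.571 and 0.387 per Ptprc in PBS 1 to 4 and 0.0364, 0.0956, 0.153 and 0.0759 in STING agonist 1 to 4. Its raw counts were low, at 12 to 88 in the controls and 8 to 23 in the treated tumors, though above the background of each tumor. Marco, a scavenger receptor for bacteria and particles, was at 0.983, 3.78, 4.201 and 4.32 in the controls and 0.523, 0.176, 0.766 and 0.459 in the treated tumors. The groups were apart in both. By edgeR, Cd163 fell by 2.42 on the log2 scale (SE 0.483), Marco fell by 2.66 (SE 0.547) and Snai1, a transcription factor of mesenchymal cells, fell by 2.15 (SE 0.429), each with adjusted p = 0.0418. These were the 3 genes that passed without PBS 2 and 4 (edgeR, adjusted p = 0.0360). Their edgeR adjusted p was 0.117 without STING agonist 1 and 0.0786 without STING agonist 2, and that of Snai1 was 0.0562 without STING agonist 4. Scaled to housekeeping genes, the groups overlapped in Cd163 and Marco, with log2 fold changes of -1.32 (edgeR, adjusted p = 0.205) and -1.33 (edgeR, adjusted p = 0.254). In Snai1 they stayed apart, with all treated tumors below all controls and -0.77 (edgeR, adjusted p = 0.175, and 0.0128 in DESeq2). The 3 genes higher per Ptprc, H2-Aa, H2-Ab1 and Cd74, serve MHC class II antigen presentation. H2-Aa rose by 1.46, H2-Ab1 by 1.28 and Cd74 by 1.22 per Ptprc on the log2 scale (edgeR, adjusted p = 0.0423 for each), without overlap. Scaled to housekeeping genes their log2 fold changes were 2.66, 2.51 and 2.48 (adjusted p = 0.175 in edgeR, and at most 0.000600 in DESeq2). All 3 calls per Ptprc ended without STING agonist 1 (edgeR, adjusted p = 0.117), without STING agonist 2 (0.0828), without STING agonist 4 (0.104 to 0.125) and without PBS 2 and 4 (0.107 to 0.122). Those of H2-Ab1 (0.0526) and Cd74 (0.0532) also ended without PBS 3, and that of Cd74 without PBS 1 (edgeR, adjusted p = 0.0513).

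The 17 macrophage and monocyte markers listed for the tissue, 6 of them among the 10 genes, were all above background on average. Their normalized counts summed to 5644, 2577, 7441 and 2548 in PBS 1 to 4 and to 9136, 7072, 7111 and 8949 in STING agonist 1 to 4, with the most counts in Lyz2. PBS 3 lay within the treated range. Of these markers, 5 were higher (17.6% of the panel) and 2, Cd163 and Marco, lower (1.33% of the panel) at an unadjusted p under 0.05. The groups were apart in 6 markers (16.8% of the panel), namely Emr1, Cybb, Csf1r, the chemokine receptor gene Ccr2 of inflammatory monocytes, the Fc receptor gene Fcgr1 and Ly86. Ccr2 was at 30.8, 18.3, 54.3 and 28.6 normalized counts in the controls and 138, 103, 56.0 and 109 in the treated tumors. Its log2 fold change was 1.48 (SE 0.398; edgeR, adjusted p = 0.175, and 0.0146 in DESeq2), beside 1.07 for Fcgr1 and 1.25 for Ly86. Without PBS 2 and 4 these were 1.24, 0.67 and 0.80. Groups overlapped in Lyz2, the lysozyme gene, and in Mrc1, the mannose receptor gene, with log2 fold changes of 0.66 and -0.26. They were 0.32 and -0.65 without PBS 2 and 4, and Mrc1 was at -0.028 with all 8 tumors separate.

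Markers of other cells were summed beside them, and a list is said to be led by the gene with the most counts. The 9 T cell markers summed to 167, 106, 192 and 115 normalized counts in PBS 1 to 4 and 399, 207, 214 and 366 in STING agonist 1 to 4, led by Cd3d, with Cd4, Cd2, Cd5 and Cd6 at background. The 6 endothelial markers, led by Pecam1, summed to 339, 444, 424 and 448 and 576, 557, 580.0 and 547, and the 3 of 8 dendritic cell markers on the panel, led by Flt3 and with Xcr1 at background, to 19.0, 18.3, 24.7 and 27.3 and 40.0, 27.5, 33.003 and 35.4. In these sums all treated tumors were above all controls, but a sum need not hold for each of its genes. Of the dendritic cell markers, Itgax had a log2 fold change of 2.02 and Flt3 one of -0.38. Flt3, with the most counts of them, averaged 11.7 normalized counts, close to the background of 8.62 counts, so no exact fold is read from these genes. The sum of the 5 of 6 fibroblast markers on the panel was lower without overlap, at 10338, 8713, 8711 and 9081 against 7731, 8618, 6533 and 8513. Most of its counts came from Col3a1 (-0.42), while Col1a1 had 0.73. The groups overlapped in the lists that follow. The 3 of 5 pan-leukocyte markers on the panel were at 322, 147, 273 and 157 against 466, 349, 307 and 525, led by Cd48, and the 5 NK cell markers were at 100.5, 90.7, 116 and 87.2 against 169, 106, 117 and 168, led by Klrc1, with Klra1 at background. The 5 of 7 neutrophil markers on the panel were at 321, 637, 365 and 541 against 659.5, 303, 554 and 408, led by S100a8, with Mpo at background. The 4 of 5 mast cell markers were at 20.8, 37.7, 43.7 and 39.0 against 34.3, 27.5, 30.002 and 29.4, led by Kit, with Ms4a2 and Tpsab1 at background, and the 3 of 4 epithelial markers at 45.3, 46.9, 61.3 and 45.6 against 53.7, 28.7, 49.0 and 44.0, led by Cdh1. The 11 of 16 hepatocyte markers on the panel summed to 4078, 1117, 2490.3 and 1171 in the controls and 3606, 2831, 3327 and 7838 in the treated tumors, led by Apoe, which macrophages also express. The part of these other cells in the results was not tested.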

How the data were processed

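The 8 tumors, 4 per group by the sample labels, were profiled with the PanCancer Immune Profiling mouse panel. The authors deposited raw counts of 784 probes per tumor (750 immune-related, 20 housekeeping, 8 negative and 6 positive), neither scaled nor background-subtracted. Dose and age come from the study's methods, which normalize to housekeeping genes in nSolver, and the number of injections and the collection day from its results section. In 1 tumor's table, 2 rows without a name were left out.

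The 10 genes and all lists were chosen with earlier results of these data known. Library sizes were set from the housekeeping geometric mean, or from the Ptprc count, with PBS 2 and 4 averaged and rounded. Groups were compared with edgeR 4.0.16 (R 4.3.3), quasi-likelihood test, without covariates or filter, adjusted by Benjamini-Hochberg over 750 or 749 genes at a threshold of 0.05. Permutation tests were exact and two-sided, on log2 values with a pseudocount of 1 (Python 3.11.15, scipy 1.17.1). Genes named beside the 10 were all listed partners on the panel, up to 4 genes with the most counts of the other lists, the 3 nearest profiles of each gene (some not reported here) and the 3 genes of lowest p per direction relative to Ptprc. Irf8, Il3ra, Ambp, Hamp and the marker genes given by name were picked after their values were seen, and GAGGAA after the promoter sequences were seen.

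Alternatives were other scales (TMM, DESeq2 size factors, total count, positive probes, housekeeping genes with 100 counts or more), removal of genes averaging under 20 counts, subtraction of negative probes, other tests (DESeq2 1.42.0, limma 3.58.1, the methods' t-test), all 8 tumors separate, PBS 2 and 4 left out, each tumor left out, a replicate block, other pseudocounts and another leukocyte denominator. Added after seeing the data were the DESeq2 test relative to Ptprc, the alternatives for the 6 ratios and the neighbors without PBS 2 and 4. Each of the 10 probes was matched to RefSeq (GRCm38.p6) through its transcript identifier.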

Additional observations from a re-analysis of the deposited data

Results flagged for a closer look

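Within the 4 STING agonist-treated tumors, 25 sets of values were searched for a tumor far from the rest, where chance would give about 1.25, and 1 was found. The ratio of Cd14 to Itgam was 0.478, 0.481 and 0.495 in STING agonist 1 to 3 and 0.327 in STING agonist 4, the tumor with hepatocyte transcripts. The gap of that tumor to its nearest neighbor took 0.899 of the whole range. The part of the hepatocyte transcripts in this value was not tested.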

How the results depend on the processing

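Every log2 fold change of Ptprc, Emr1, Cybb, Csf1r, Itgam, Csf2rb and Cx3cr1 scaled to housekeeping genes stayed above 0 in all alternatives run. The sign turned in others. With DESeq2 size factors, TMM and total count, Csf1 was at -0.14, -0.13 and -0.094, Cd14 at -0.21, -0.20 and -0.12, Cebpb at -0.29, -0.28 and -0.19, Kit at -0.12, -0.11 and -0.042, Ly96 at -0.22, -0.21 and -0.14, and Tlr4 at -0.099, -0.090 and -0.034. Flt3l was at 0.0056 with the positive probes and Tlr2 at -0.025 without PBS 2 and 4. With all 8 tumors separate, Cd14 was at -3.33e-04 and Cebpb at -0.072. Leaving out 1 tumor at a time gave -0.71 to 0.24 for Csf2, -0.11 to 0.23 for Cd14, -0.16 to 0.086 for Cebpb and -0.15 to 0.34 for Kit.

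Per Ptprc, Csf1r was at 0.082 with all 8 tumors separate and at 0.25 with Ptprc, Cd53 and Cd48 as the denominator, and Cx3cr1 at 0.18 with the latter. Without PBS 2 and 4, Cybb was at -0.057, Csf1r at -0.35 and Cx3cr1 at -0.33. Leaving out 1 tumor gave -0.22 to 0.092 for Csf1r and -0.59 to 0.53 for Cx3cr1. The 255 genes lower per Ptprc became 3 without PBS 2 and 4, 462 with all 8 tumors, 10 with the leukocyte denominator and 0 to 395 with 1 tumor left out. Of the 9 genes, 0 passed without PBS 2 and 4, 0 with the leukocyte denominator and 0 to 3 with 1 tumor left out. An exact permutation test per gene had a lowest adjusted p of 0.106.

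Over the panel, 52 genes passed in DESeq2 and 0 to 7 in edgeR with 1 tumor left out. At an unadjusted p under 0.05, 78 genes were higher and 44 lower with DESeq2 size factors, 84 and 40 with TMM, and 68 and 31 with total count. The methods' t-test gave 86 higher, and 17 were lower without PBS 2 and 4. With 1 tumor left out, 79 to 154 were higher and 6 to 18 lower. The groups were apart in 2 of the 10 genes with the positive probes, against 9.6% of the panel. Without PBS 2 and 4, the log2 difference of Cd14 to Itgam was 0.14 and that of Cx3cr1 to Csf1r 0.11. Leaving out 1 tumor gave -0.27 to 0.12 for Csf1r to Emr1 and -0.58 to 0.17 for Cx3cr1 to Csf1r. The cause of these moves was not tested. Depth limits Csf2, whose counts were near background.

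Tumors of both groups carry the numbers 1 to 4, but the deviations of same-numbered tumors correlated at -0.0603, -0.0810, -0.284 and -0.129 over 517 genes, so the numbers were not taken as pairs. With the number as a replicate block and all 8 tumors separate, 0 genes passed in edgeR, the unadjusted test gave 159 with higher and 13 with lower values, with 5 of the 10 genes among them, and 308 genes were lower per Ptprc. With this block Cd14 was at -0.014, Cebpb at -0.074 and Csf1r per Ptprc at 0.16.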
